A study of Homo sapiens with 12 samples.

Results

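Genes for 10 glycoproteins and proteoglycans of the extracellular matrix were followed through the RNA of U2OS cells and through the RNA that an immunoprecipitation against the cap recovered from it. They were FN1, FBN1, FBN2, TNC, THBS1, THBS2, HSPG2, AGRN, SPARC and VCAN, taken by symbol. All 10 had a row among the 58684 genes of the deposited count table. U2OS is an established human osteosarcoma line, and all 4 groups were made from it. The cells were stable lines that carried either a vector or EIF4E-Flag, that is, the cap-binding translation factor eIF4E with a Flag tag. Each line gave input RNA and the RNA of a Cap IP, so that the groups were vector input, eIF4E-Flag input, vector Cap IP and eIF4E-Flag Cap IP, with 3 libraries each and 12 in all. Which promoter drove EIF4E-Flag and whether a line was 1 clone (both not given in the sources used here) could not be described. The title of the series concerns eIF4E and m7G capping.

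These genes encode proteins that cells secrete to build the fibrous and gel-like surroundings in which they attach. Fibronectin, the product of FN1, and the fibrillins of FBN1 and FBN2 assemble into fibrils and microfibrils. Tenascin-C (TNC), the thrombospondins (THBS1, THBS2) and SPARC are matricellular proteins, which tune how cells adhere rather than bear load. Perlecan (HSPG2) and agrin (AGRN) carry heparan sulfate chains and belong to basement membranes, and versican (VCAN) carries chondroitin sulfate and binds hyaluronan. In bone-forming cells, SPARC, also named osteonectin, is known as an abundant non-collagenous protein of the matrix. The m7G cap is the modified guanosine at the start of an mRNA, which eIF4E binds when translation begins.

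Libraries held 1206321 to 1813486 counts, and the limit of 3 counts, in CPM, lay between 1.19 and 3.15. CPM divide the counts by the library size, scaled with TMM factors, and give them per 1e+06 counts. Of the 10 genes, 9 passed the filter on low counts, among 12460 tested genes. VCAN did not, and the 9 are not the whole group. FBN1 and THBS2 were close to the filter, with means of 7.92 and 15.2 counts per library. EIF4E itself had 9 to 15 counts in vector input and 23 to 39 in eIF4E-Flag input, a log2 difference of 0.98 ± 0.36 (SE) that did not pass (edgeR, Benjamini-Hochberg adjusted p = 0.231), so this check of the labels is weak. The labels do not say whether replicates were grown apart, so p-values measure the spread between these libraries, which may be technical. Among the osteoblast markers COL1A1 had 5375 counts over the vector input libraries, while COL1A2 had 2 there and IBSP had 0 in all 12 libraries. RUNX2, a regulator of bone formation, had 73 counts over vector input and 46 over eIF4E-Flag input.

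The library kit keeps strand, with the counting strand not given in the sources used here. VIM-AS1, which lies opposite to the intermediate filament gene VIM, had a mean of 17369 counts per library and VIM 1289. For this reason every gene that overlaps one of the 10 on the other strand was looked up in GENCODE. For HSPG2, SPARC, THBS1, FBN2 and VCAN such a row was found by name, and its counts stand beside the results. THBS2 shares 2249 exon bases with THBS2-AS1, TNC shares 129 with DELEC1 and THBS1 shares 411 with THBS1-AS1, and these opposite genes were not analysed here. FN1 and AGRN had no annotated gene on the other strand, and FBN1 had none that shares exon bases. How far reads of the other strand enter the counts was not tested. Nor was how far a gene's own reads are missing from its row, also where no gene lies opposite. Levels below are thus those of count rows.

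Of the 9 tested genes, SPARC, THBS1 and AGRN had the 3 highest means per length in input RNA of both kinds of cell. FBN1 had the lowest. Levels per length were CPM divided by the kilobases of annotated exons. In vector input SPARC had 65.5 ± 13.5 CPM per kb (SD, n = 3), followed by THBS1 with 31.0 ± 6.89, AGRN with 29.1 ± 11.2, FN1 with 18.9 ± 12.1, HSPG2 with 11.9 ± 1.38 and TNC with 9.29 ± 3.45. The ranges of neighbours overlapped from THBS1 down to TNC, so their order is not settled by these libraries. FBN2 with 3.95 ± 0.232, THBS2 with 1.55 ± 0.631 and FBN1 with 0.464 ± 0.123 CPM per kb followed, each apart from its neighbours. FBN2, a fibrillin known mainly from development, was thus above FBN1, its relative of mature tissue, in every vector input library. In eIF4E-Flag input AGRN led with 83.3 ± 42.7 CPM per kb, and its range overlapped that of SPARC at 60.0 ± 14.5, which in turn overlapped that of THBS1 at 55.7 ± 17.2. HSPG2 came next with 22.1 ± 3.75, ahead of FN1 with 10.5 ± 3.36 and TNC with 7.14 ± 0.676. The 10 genes together made up 0.205% ± 0.0638 of the counts in vector input and 0.314% ± 0.0153 in eIF4E-Flag input. They made up 0.0482% ± 0.0267 in vector Cap IP and 0.0416% ± 0.0114 in eIF4E-Flag Cap IP.

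**Figure D1:**
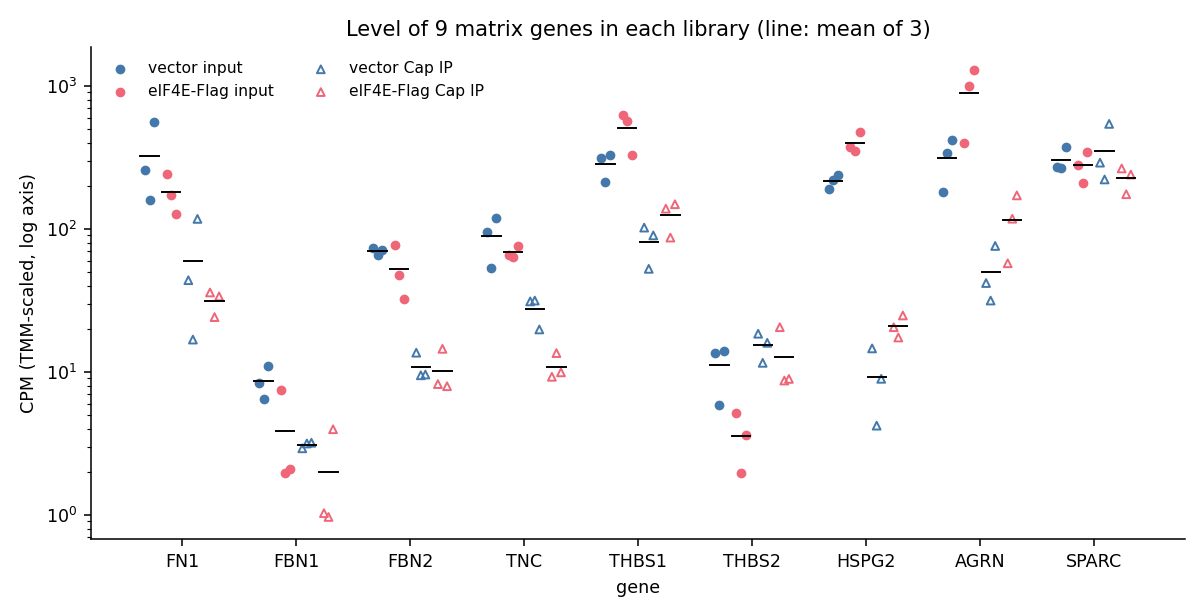
CPM on a log axis for 9 genes in each of 12 libraries, with filled circles for input, open triangles for Cap IP, blue for vector and red for eIF4E-Flag cells, and a line at each mean of 3. Triangles lie below circles for FN1, FBN2, TNC, THBS1, HSPG2 and AGRN, while for SPARC they overlap and for THBS2 in eIF4E-Flag cells they lie above.

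VCAN was at the limit of detection. It had 1 count in vector input replicate 1 and 0 in the other 5 input libraries. Vector Cap IP gave it 1, 2 and 1 counts, and eIF4E-Flag Cap IP 1, 0 and 0. VCAN-AS1, opposite to it, had 8 counts over all 12 libraries. No fold is given, since both groups of every comparison lay at or near 3 counts.

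The sequences upstream of 4 of these genes are shown, chosen by the results of the genes. HSPG2 had the lowest Cap IP over input of the 9, and SPARC did not pass. THBS1 and FN1 both fell in Cap IP, and their fitted values between the inputs lay on opposite sides of 0, where neither passed. Each is the run of 250 bases before the RefSeq start (GRCh38.p14), 5′ to 3′ on the strand of the gene. RefSeq promoters were matched for 9 of the 10 genes. Capitals mark 4 motifs searched on both strands, the TATA box core TATAA, the CCAAT box CCAAT, the GC box GGGCGG and the cAMP response element TGACGTCA, and capitals run together where matches overlap or touch. They are at chr1:21937311-21937560 (HSPG2, minus strand), chr15:39580829-39581078 (THBS1, plus strand), chr2:215436069-215436318 (FN1, minus strand) and chr5:151686916-151687165 (SPARC, minus strand).
HSPG2: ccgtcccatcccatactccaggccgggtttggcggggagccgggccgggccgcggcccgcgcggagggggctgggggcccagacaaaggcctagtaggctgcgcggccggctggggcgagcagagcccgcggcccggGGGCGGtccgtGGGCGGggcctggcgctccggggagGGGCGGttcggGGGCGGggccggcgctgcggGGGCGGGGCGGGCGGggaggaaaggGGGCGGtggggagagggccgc
THBS1: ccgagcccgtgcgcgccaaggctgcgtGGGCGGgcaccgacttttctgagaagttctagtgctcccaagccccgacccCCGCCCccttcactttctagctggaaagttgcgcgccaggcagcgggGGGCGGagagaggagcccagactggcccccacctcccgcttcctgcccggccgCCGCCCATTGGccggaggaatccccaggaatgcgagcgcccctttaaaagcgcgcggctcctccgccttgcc
FN1: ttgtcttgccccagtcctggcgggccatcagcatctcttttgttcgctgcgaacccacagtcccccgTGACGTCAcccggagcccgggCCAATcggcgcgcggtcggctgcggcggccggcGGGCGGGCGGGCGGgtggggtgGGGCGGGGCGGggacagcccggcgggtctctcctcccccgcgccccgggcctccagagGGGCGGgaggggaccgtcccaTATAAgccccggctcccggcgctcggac
SPARC: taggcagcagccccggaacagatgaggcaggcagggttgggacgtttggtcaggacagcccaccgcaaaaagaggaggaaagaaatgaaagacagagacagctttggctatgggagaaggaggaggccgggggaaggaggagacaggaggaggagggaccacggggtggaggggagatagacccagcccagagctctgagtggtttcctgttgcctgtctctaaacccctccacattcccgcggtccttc
HSPG2 had 8 GC boxes and a G and C content of 82.8%, THBS1 had 4 GC boxes and 1 CCAAT box, and FN1 had 6 GC boxes and 1 match to each other motif. SPARC had none of the 4 in this window, and a G and C content of 59.2%. Of 35116 RefSeq promoters of the same length, 42.6% held a GC box, 32.0% a CCAAT box, 18.9% the TATA core and 1.65% the cAMP response element. These matches describe letters only, and no factor binding was measured. Whether they bear on any value of these genes was not tested.

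The first comparison asked what the Cap IP recovered relative to input. In vector cells HSPG2, FBN2, AGRN, FN1, THBS1 and TNC fell, and in eIF4E-Flag cells the same 6 genes fell. Their log2 changes ran from -4.52 for HSPG2 to -1.71 for TNC in vector cells, and from -4.26 for HSPG2 to -2.03 for THBS1 in eIF4E-Flag cells. FBN1 and SPARC did not pass in either kind of cell, and THBS2 passed as higher in eIF4E-Flag cells. Among all tested genes 21.0% were called lower in vector cells and 23.3% in eIF4E-Flag cells, and 15.6% were called lower in both. In vector cells 7 genes, FBN1 among them, had every Cap IP library below every input library, as did 27.2% of all genes. In eIF4E-Flag cells 6 did, with 29.5% of all genes, and THBS2 lay above without overlap, with 25.4%. The median log2 change of the 9 genes was -1.80 in vector cells, where the median of all tested genes was -0.04, and -2.34 in eIF4E-Flag cells, where it was -0.13. A gene was called at an adjusted p under 0.05 in edgeR's quasi-likelihood test with Benjamini-Hochberg adjustment over all 12460 genes. A lower value in the Cap IP is relative to the other RNAs recovered and is no measure of the share of molecules with a cap. Between eIF4E-Flag and vector cells, bulk RNA like this cannot tell fewer cells with a transcript from less of it per cell.

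HSPG2 (perlecan, chromosome 1 at 21822244 to 21937310 of GRCh38) had 189, 219 and 239 CPM in vector input and 14.6, 4.204 and 8.94 in vector Cap IP. In eIF4E-Flag cells input held 376, 348 and 477 CPM and Cap IP 20.5, 17.4 and 24.8 CPM. Every Cap IP library lay far below every input library. The log2 change was -4.52 ± 0.36 in vector cells (edgeR adjusted p = 6.34e-08) and -4.26 ± 0.34 in eIF4E-Flag cells (edgeR adjusted p = 5.99e-08). Counts in vector Cap IP were 15, 4 and 14, so its level there is imprecise. By size of change HSPG2 was rank 182 from the lowest of 12460 genes in vector cells and rank 164 in eIF4E-Flag cells.

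LDLRAD2, a receptor-domain gene on the other strand at 21812265 to 21825225, shares 2122 exon bases with HSPG2. It had 506 to 632 CPM in vector input, 719 to 1098 in eIF4E-Flag input, 16.5 to 25.2 in vector Cap IP and 23.8 to 34.9 in eIF4E-Flag Cap IP. Its mean of 739 counts per library was above the 329 of HSPG2. Its log2 changes of -4.70 ± 0.33 and -4.83 ± 0.32 (edgeR adjusted p = 9.94e-09 and 7.80e-09) were close to those of HSPG2. Which of these neighbours the reads in each row came from was not tested, so the result holds for the pair of rows and not for HSPG2 mRNA alone.

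**Figure D2:**
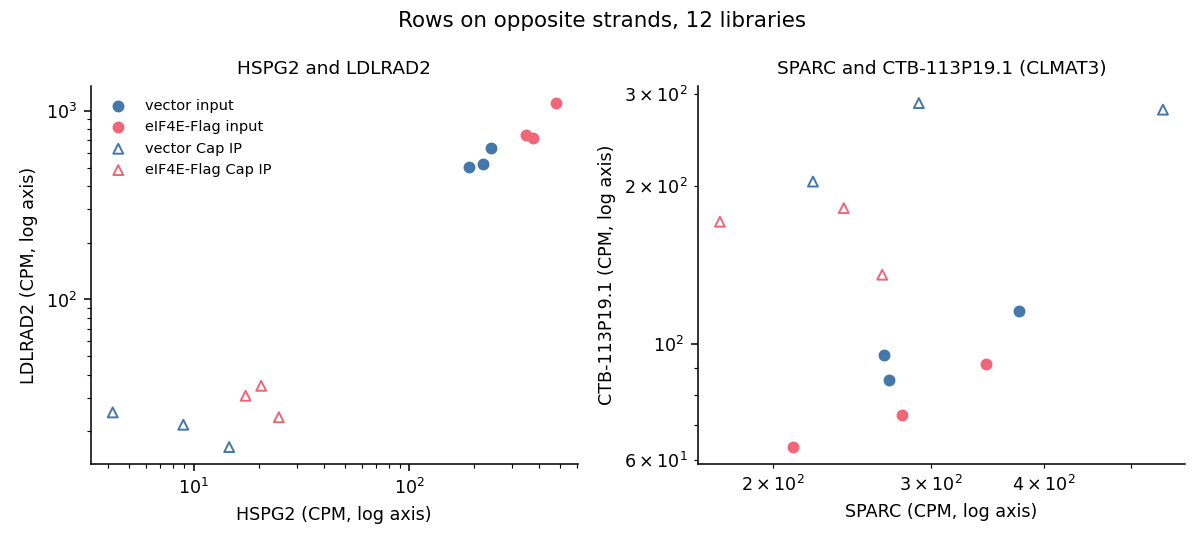
CPM of a gene and of the row on its opposite strand in 12 libraries, both axes logarithmic, for HSPG2 with LDLRAD2 (left) and SPARC with CTB-113P19.1 (right). HSPG2 and LDLRAD2 are both low in all 6 Cap IP libraries, whereas CTB-113P19.1 lies higher in Cap IP than in input and SPARC does not separate input from Cap IP.

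AGRN (agrin, chromosome 1 at 1020120 to 1056118), which organises the nerve-muscle synapse and basement membranes, had 180, 340 and 417 CPM in vector input and 41.8, 31.5 and 76.0 in vector Cap IP. The eIF4E-Flag input libraries had 396, 996 and 1299 CPM and the Cap IP libraries 57.5, 118 and 172. The Cap IP libraries lay below the input libraries without overlap in both kinds of cell. The log2 change was -2.63 ± 0.47 in vector cells (edgeR adjusted p = 2.40e-04) and -2.95 ± 0.46 in eIF4E-Flag cells (edgeR adjusted p = 5.20e-05). With the mRNAs of the mitochondrial genome in place of the library sizes, an alternative scaling, the vector value was -1.85 (edgeR adjusted p = 0.0695) and no longer passed.

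FN1 (fibronectin, chromosome 2 at 215360440 to 215436073), the main ligand of the integrin of ITGA5 and ITGB1, had 257, 159 and 559 CPM in vector input and 43.8, 16.8 and 117 in vector Cap IP. Replicate 3 was highest of the vector libraries both in input and in Cap IP. With eIF4E-Flag, FN1 had 242, 172 and 127 CPM in input and 35.9, 24.1 and 33.7 in Cap IP. Cap IP lay below input without overlap in both kinds of cell. The log2 change was -2.42 ± 0.51 in vector cells (edgeR adjusted p = 9.11e-04) and -2.53 ± 0.53 in eIF4E-Flag cells (edgeR adjusted p = 7.22e-04). In vector cells it was -1.77 without vector input replicate 3 and -3.42 without vector Cap IP replicate 3, and it passed both times (edgeR adjusted p = 0.00763 and 7.90e-05). Within cultures, that is, the input and Cap IP libraries whose titles share a stem, Cap IP minus input was -2.52, -3.15 and -2.24 on the log2 CPM scale in vector cells. The high input library thus shared its title stem with the high Cap IP library.

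FBN2 (fibrillin-2, chromosome 5 at 128257909 to 128659185) had 73.7, 65.7 and 71.7 CPM in vector input and 13.6, 9.46 and 9.58 in vector Cap IP. The values were 76.7, 47.4 and 32.2 CPM in eIF4E-Flag input and 8.21, 14.5 and 7.93 in eIF4E-Flag Cap IP. Every Cap IP library was below every input library. It fell, with a log2 change of -2.69 ± 0.37 in vector cells (edgeR adjusted p = 2.23e-05) and of -2.34 ± 0.38 in eIF4E-Flag cells (edgeR adjusted p = 6.50e-05). With mitochondrial mRNAs as library sizes these were -1.74 and -2.11 and did not pass (edgeR adjusted p = 0.0824 and 0.0543). SLC27A6, which shares 56 exon bases with it, had 7 counts over all libraries.

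FBN1 (fibrillin-1, chromosome 15 at 48408313 to 48645721), the gene mutated in Marfan syndrome, was near the floor. It had 13, 12 and 26 counts in vector input and 3, 3 and 5 in vector Cap IP. In eIF4E-Flag cells it had 19, 4 and 4 counts in input and 1, 1 and 4 in Cap IP. Overlap between input and Cap IP was seen in eIF4E-Flag cells but not in vector cells. Its log2 change of -1.46 ± 0.64 in vector cells and -0.97 ± 0.75 in eIF4E-Flag cells did not pass (edgeR adjusted p = 0.0755 and 0.304). In vector cells it passed with only the groups compared, at -1.46 (edgeR adjusted p = 0.0410), and with total counts as library sizes, at -2.19 (edgeR adjusted p = 0.0128). In eIF4E-Flag cells it was -0.019 without input replicate 1 and -1.95 without Cap IP replicate 3, and passed neither time (edgeR adjusted p = 0.988 and 0.121). These few counts leave the size of any change imprecise.

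TNC (tenascin-C, chromosome 9 at 115019575 to 115118207), an anti-adhesive protein of wounds and tumour stroma, had 95.0, 53.5 and 119 CPM in vector input and 31.1, 31.5 and 19.8 in vector Cap IP. With eIF4E-Flag, TNC had 66.0, 63.5 and 75.8 CPM in input and 9.24, 13.5 and 9.92 in Cap IP, again with no overlap. TNC fell, with a log2 change of -1.71 ± 0.32 in vector cells (edgeR adjusted p = 3.96e-04) and of -2.64 ± 0.36 in eIF4E-Flag cells (edgeR adjusted p = 1.50e-05). With mitochondrial mRNAs as library sizes the vector value was -0.42 (edgeR adjusted p = 0.704) and did not pass. Within cultures TNC was uneven in vector cells, at -1.57, -0.74 and -2.51. By title stem it was -2.68, -2.13 and -2.78 in eIF4E-Flag cells. Those stems were not taken to pair libraries, so the spreads of the kinds of cell are not compared.

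THBS1 (thrombospondin-1, chromosome 15 at 39581079 to 39599466), which activates latent TGF-beta and binds CD47, had 315, 212 and 326 CPM in vector input and 102, 52.5 and 90.0 in vector Cap IP. In eIF4E-Flag cells it had 629, 571 and 331 CPM in input and 139, 86.9 and 149 in Cap IP. No Cap IP library reached the level of an input library of either kind of cell. Its log2 change was -1.80 ± 0.33 in vector cells (edgeR adjusted p = 3.31e-04) and -2.03 ± 0.33 in eIF4E-Flag cells (edgeR adjusted p = 7.21e-05). With mitochondrial mRNAs as library sizes these were -0.86 and -1.97 and did not pass (edgeR adjusted p = 0.411 and 0.0763). FSIP1, whose exons share 448 bases with it on the other strand, had 17 counts over all libraries.

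THBS2 (thrombospondin-2, chromosome 6 at 169215780 to 169254050), the relative of THBS1 that restrains vessel growth, went the other way. It had 13.6, 5.88 and 13.9 CPM in vector input and 18.5, 11.6 and 15.96 in vector Cap IP, ranges that overlapped. In eIF4E-Flag cells it had 5.14, 1.96 and 3.63 CPM in input and 20.5, 8.69 and 8.92 in Cap IP, with no overlap. The log2 change was 0.46 ± 0.45 in vector cells (edgeR adjusted p = 0.432) and 1.78 ± 0.51 in eIF4E-Flag cells (edgeR adjusted p = 0.00831). Input counts in eIF4E-Flag cells were 13, 4 and 7, near the floor, so the size is uncertain. The call ended without eIF4E-Flag Cap IP replicate 1, at 1.25 (edgeR adjusted p = 0.0904). It also ended with total counts as library sizes, at 0.91 (edgeR adjusted p = 0.156), and with mitochondrial mRNAs, at 1.77 (edgeR adjusted p = 0.124). The vector value turned to -0.27 with total counts.

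SPARC (chromosome 5 at 151661096 to 151686975) did not pass in either kind of cell. It had 270, 266 and 376 CPM in vector input and 291, 222 and 543 in vector Cap IP. In eIF4E-Flag cells it had 278, 211 and 345 CPM in input and 265, 175 and 240 in Cap IP. Input and Cap IP overlapped in both kinds of cell. The log2 change was 0.21 ± 0.32 in vector cells (edgeR adjusted p = 0.625) and -0.30 ± 0.32 in eIF4E-Flag cells (edgeR adjusted p = 0.473). With total counts as library sizes the vector value turned to -0.48, and the eIF4E-Flag value was -1.13 and passed (edgeR adjusted p = 0.0122). CTB-113P19.1, an older name of the long noncoding RNA CLMAT3, lies opposite to SPARC and shares 191 exon bases with it. It rose in Cap IP by 1.38 ± 0.27 in vector cells (edgeR adjusted p = 4.65e-04) and by 1.10 ± 0.27 in eIF4E-Flag cells (edgeR adjusted p = 0.00255), so the rows of this pair moved apart from each other.

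**Figure D3:**
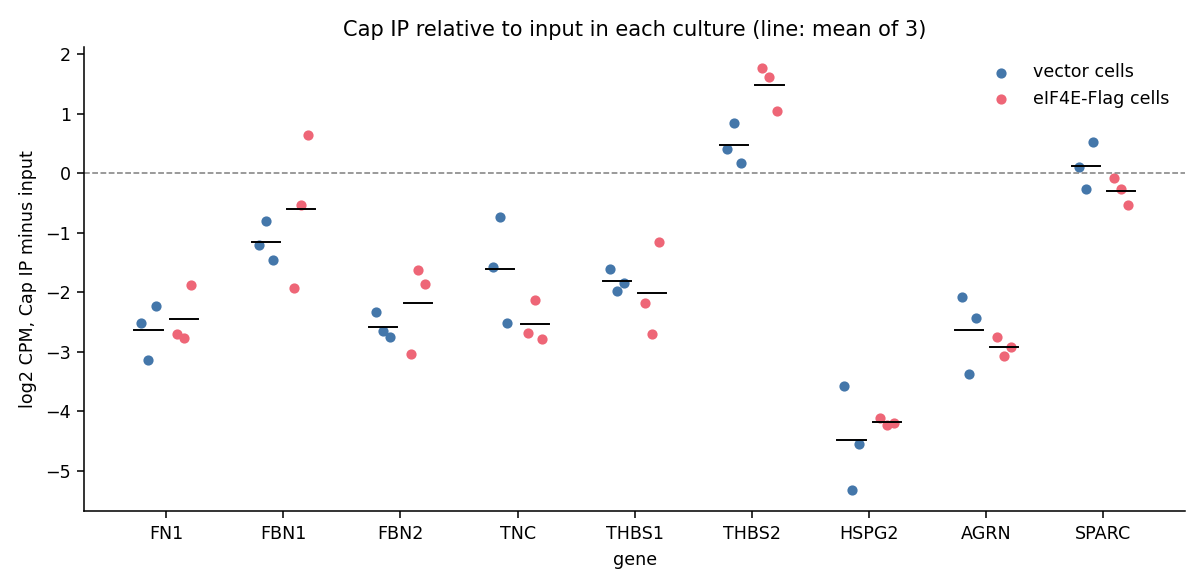
Cap IP minus input in log2 CPM (prior count of 2) for 9 genes, with a line at each mean of 3. Each point sets a Cap IP library against the input library that shares its title stem, in vector (blue) or eIF4E-Flag cells (red). In eIF4E-Flag cells these stems were not taken to pair libraries. HSPG2 lies between -5.33 and -3.58 in all 6 points, THBS2 is above 0 in all 6, and SPARC lies on both sides of 0 in vector cells.

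The genes that fell had long transcripts, and the protein-coding genes with long transcripts were lower in Cap IP. Among 9232 tested protein-coding genes, those whose longest annotated transcript was under 2000 bases had a median log2 change of 0.52 in vector cells (n = 1432). The medians were -0.03 for 2000 to 4000 bases, the band of SPARC, and -0.44 for 4000 to 6000 bases, the band of THBS2. They were -0.67 for 6000 to 8000 bases (THBS1 and AGRN), -0.90 for 8000 to 10000 bases (FN1 and TNC), -0.95 for 10000 to 12000 bases (FBN1 and FBN2) and -1.17 from 12000 bases (HSPG2). In eIF4E-Flag cells the medians of these 7 bands ran in the same order from 0.15 to -1.02. Among genes with no exon opposite to another gene the order was less even, with -1.19 for 8000 to 10000 bases, -1.08 for 10000 to 12000 and -1.20 from 12000 bases in vector cells. In vector cells 7.33% of the shortest band and 45.8% of the longest were called lower. This is a description across genes, which are no replicates, and what part length has in the values of the matrix genes was not tested.

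Within their own length bands the matrix genes still lay at different places. HSPG2, with a longest transcript of 14341 bases, had 1 of 225 genes of its band below it in vector cells and 2 in eIF4E-Flag cells. AGRN, with 7477 bases, had 45 of 1114 genes below it in vector cells and 30 in eIF4E-Flag cells. FBN2 had 18 and 38 of 262 genes below it, FN1 60 and 66 of 532, TNC 133 and 54 of 532, and THBS1 176 and 165 of 1114. FBN1 was nearer the middle of its band, with 83 and 120 of 262 genes below it, and so was SPARC, with 2016 and 1642 of 3271. THBS2 was in the upper part of its band in vector cells, with 1926 of 2396 genes below it. It was near the top in eIF4E-Flag cells, with 2292 below it. Level did not order genes the same way. The 659 protein-coding genes at 7 or more on the average log2 CPM scale include FN1, THBS1, HSPG2, AGRN and SPARC. Their median change in vector cells was 0.58, and 15.2% of them were called lower. Of these, 204 had no exon opposite to another gene, FN1 and AGRN among them, with a median of 0.41 and 24.0% called lower in vector cells. In eIF4E-Flag cells the median was 0.46 for the 659 genes and -0.0053 for the 204, of which 29.4% were called lower.

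**Figure D4:**
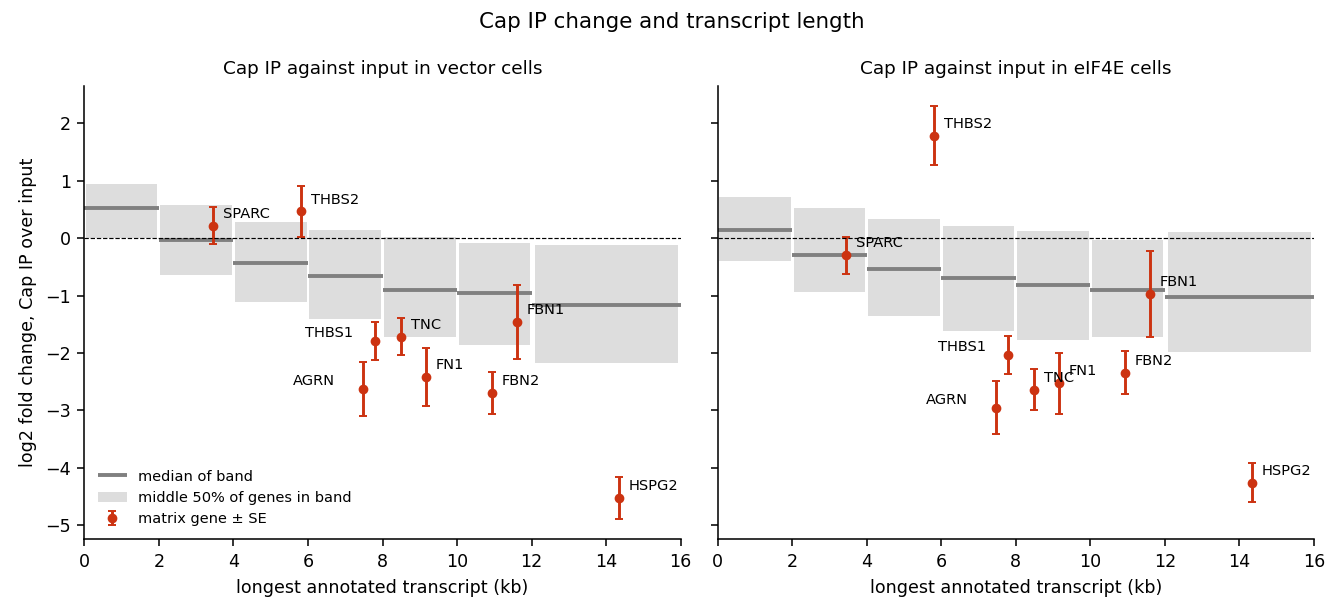
Log2 fold change of Cap IP over input against the longest annotated transcript in kilobases, for vector cells (left) and eIF4E-Flag cells (right); grey boxes span the interquartile range of all protein-coding genes in a length band with a line at the median, and red points are 9 matrix genes with SE. The last band holds all genes from 12 kb upward and is drawn to 16 kb; AGRN, THBS1, FN1, FBN2 and HSPG2 lie below the grey boxes in both panels and THBS2 above them.

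The second comparison asked whether input levels differed between eIF4E-Flag and vector cells. None of the 9 genes passed over all genes in the main edgeR fit, 4 had an unadjusted p under 0.05, and DESeq2 called 1, HSPG2. Among all tested genes 0.530% passed by edgeR, 0.104% higher and 0.425% lower, and 13.5% had an unadjusted p under 0.05. The fitted values pointed both ways, with both heparan sulfate proteoglycans and THBS1 above 0, and THBS2, FBN1, FN1, FBN2, TNC and SPARC below. The median of the 9 was -0.38 and that of all tested genes -0.05. AGRN, HSPG2 and THBS1 took ranks 12385, 11995 and 11910 from the lowest of 12460, and THBS2 took rank 186. In other edgeR fits AGRN passed with no filter and without eIF4E-Flag input replicate 1 (edgeR adjusted p = 1.19e-04 and 0.0394). Those fits called 318 and 99 genes in all. AGRN, HSPG2 and THBS2 passed with the title tag as a block, which called 462 genes. Tags were not taken to pair the input libraries.

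AGRN stood at 1.52 ± 0.44 on the log2 scale in eIF4E-Flag input against vector input (edgeR adjusted p = 0.136). The groups overlapped, since the lowest eIF4E-Flag library, with 396 CPM, lay under the highest vector library, with 417. HSPG2 stood at 0.89 ± 0.28 (edgeR adjusted p = 0.162), and its 3 eIF4E-Flag libraries lay above its 3 vector libraries. LDLRAD2, opposite to it, stood at 0.63 ± 0.27 (edgeR adjusted p = 0.307). THBS1 stood at 0.84 ± 0.32 (edgeR adjusted p = 0.240), also without overlap, since the lowest eIF4E-Flag library had 331 CPM and the highest vector library 326. THBS2 stood at -1.59 ± 0.49 (edgeR adjusted p = 0.150), with 21, 11 and 33 counts in vector input against 13, 4 and 7 in eIF4E-Flag input, and no overlap in CPM. Of all tested genes, 8.45% had non-overlapping groups with eIF4E-Flag higher and 10.2% with eIF4E-Flag lower.

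The groups of the remaining genes overlapped. FBN1 stood at -1.10 ± 0.56 (edgeR adjusted p = 0.398), and at -2.06 without eIF4E-Flag input replicate 1, still short of the threshold (edgeR adjusted p = 0.131). FN1 stood at -0.85 ± 0.47 (edgeR adjusted p = 0.441). FN1 was -0.20 without vector input replicate 3, the library in which it was highest. FBN2 stood at -0.43 ± 0.31, TNC at -0.38 ± 0.30 and SPARC at -0.13 ± 0.32. The summed level of 8 epithelial markers was 1374 to 2249 CPM in vector input and 2466 to 4018 CPM in eIF4E-Flag input, without overlap. Of single tested genes, 8.45% lay higher in this way. Only 4 of the 8 markers passed the filter on low counts, and 1 of these was called higher in eIF4E-Flag input. Among all tested genes 0.104% were called higher there. EPCAM had 7 counts over vector input and 11 over eIF4E-Flag input, and CDH1 had 34 and 49, so these gave little of the sum. The summed level of 9 osteoblast markers was 722 to 1100 CPM in vector input and 602 to 741 CPM in eIF4E-Flag input. Most of it came from COL1A1, with 5375 counts over vector input and 4042 over eIF4E-Flag input. Blood markers summed to 10.1 to 23.0 and 5.38 to 16.6 CPM, endothelial markers to 8.55 to 11.4 and 6.33 to 25.96 CPM, and neuronal markers to 25.3 to 32.3 and 31.3 to 48.3 CPM. The part of these in the values of the matrix genes was not tested.

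In the Cap IP libraries none of the 9 genes passed between eIF4E-Flag and vector cells, with 3 at an unadjusted p under 0.05 and 0 by DESeq2. Over all genes 0.225% passed and 9.20% had an unadjusted p under 0.05. This was 28 genes, and 155 with the title tag as a block, under which none of the 9 passed either. AGRN stood at 1.19 ± 0.46 (edgeR adjusted p = 0.422), HSPG2 at 1.16 ± 0.38 (edgeR adjusted p = 0.322) and THBS1 at 0.61 ± 0.33 (edgeR adjusted p = 0.614). TNC stood at -1.31 ± 0.38 (edgeR adjusted p = 0.222), FN1 at -0.96 ± 0.53, SPARC at -0.64 ± 0.32, FBN1 at -0.62 ± 0.84, THBS2 at -0.28 ± 0.47 and FBN2 at -0.08 ± 0.43. HSPG2 was higher and TNC lower in eIF4E-Flag Cap IP without overlap. Of all tested genes 6.16% were higher and 7.39% lower in this way. FN1 was 0.07 without vector Cap IP replicate 3, so its sign rested on that library.

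**Figure D5:**
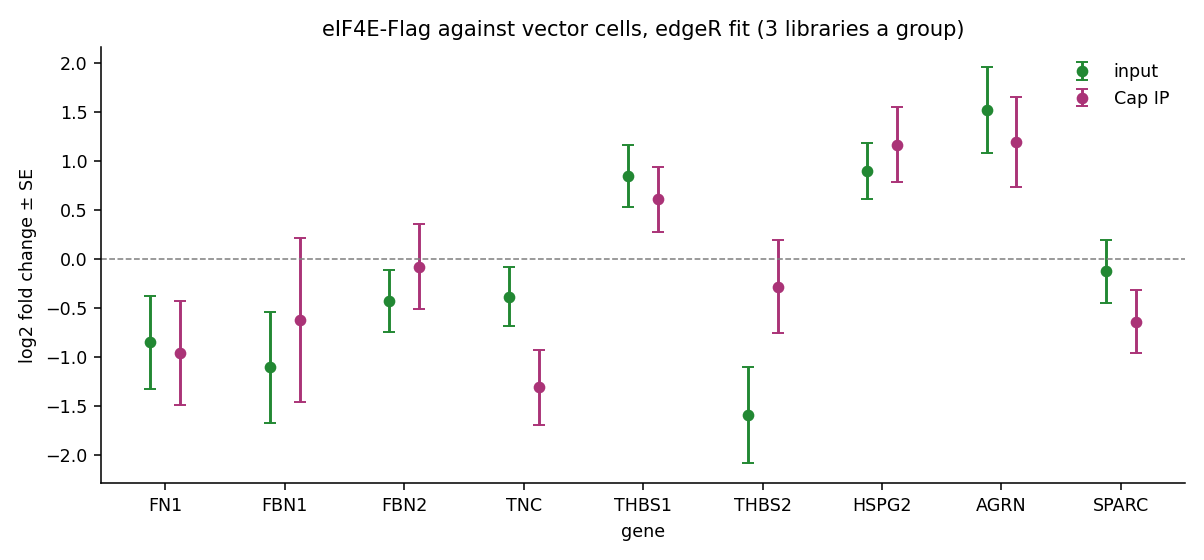
Log2 fold change with SE of eIF4E-Flag over vector cells for 9 genes, in input (green) and Cap IP (purple), from the edgeR fit with 3 libraries a group. THBS1, HSPG2 and AGRN are above 0 in both, and none of the 18 points passed an adjusted p of 0.05.

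The design also allowed a test of whether Cap IP over input differed between the 2 kinds of cell. None of the 9 genes passed, 0 had an unadjusted p under 0.05 and 0 passed by DESeq2. Of all 12460 genes 0% passed, with 728 (5.84%) at an unadjusted p under 0.05 and 0 called by DESeq2. THBS2 stood at 1.31 ± 0.68 and TNC at -0.93 ± 0.48 (edgeR adjusted p = 0.833 each). SPARC stood at -0.51 ± 0.45 and FBN1 at 0.49 ± 1.06, and FBN2, AGRN, HSPG2, THBS1 and FN1 lay between -0.32 and 0.35. The pass of THBS2 in eIF4E-Flag cells and its miss in vector cells are thus not shown to differ.

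Other genes of the matrix were taken from lists that leave out the 10 above. For each list the background is that of all tested genes, of which 21.0% were called lower and 18.5% higher in vector Cap IP, and 23.3% lower and 21.9% higher in eIF4E-Flag Cap IP. Of 28 tested genes listed as matrix glycoproteins, 10 fell and 0 rose in vector Cap IP, with a median of -0.78. In eIF4E-Flag Cap IP 13 fell and 1 rose, with a median of -0.85. That list was drawn up by name and also holds genes such as MFAP1 and CRIM1, whose products are not matrix glycoproteins. LTBP4, which holds TGF-beta in the matrix on fibrillin, fell, at -2.05 ± 0.37 in vector and -2.69 ± 0.41 in eIF4E-Flag cells (edgeR adjusted p = 2.92e-04 and 3.78e-05). FRAS1, a basement membrane protein, fell by 2.74 in vector cells. Of 15 tested genes listed as other proteoglycans, 4 fell and 1 rose in vector Cap IP, with a median of -0.32. In eIF4E-Flag Cap IP 7 fell and 1 rose, with a median of -0.74. BCAM and HAPLN1, which are not proteoglycans, count among them. CSPG4, a large membrane proteoglycan, fell, at -3.33 and -3.11, and so did the glypican GPC1, at -1.32 and -1.79, while GPC6 rose by 1.38 and by 1.396.

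Of 15 tested receptors and partners, 5 fell and 2 rose in vector Cap IP, and 6 fell and 3 rose in eIF4E-Flag Cap IP. LRP1, an endocytic receptor that takes up thrombospondins, fell, at -3.81 ± 0.34 and -4.24 ± 0.36 (edgeR adjusted p = 3.03e-07 and 1.42e-07). DAG1, the dystroglycan that binds agrin and perlecan, fell, at -1.90 and -2.19, and so did ITGA5, the fibronectin receptor subunit, at -2.11 and -2.42. Of 24 tested genes for glycosaminoglycan synthesis, 4 fell and 1 rose in vector cells, and 8 fell and 1 rose in eIF4E-Flag cells. Their medians were -0.48 and -0.78, beside -0.04 and -0.13 for all tested genes. NDST1, which sulfates heparan sulfate, fell, at -2.55 and -3.14, and CHST3, a chondroitin sulfotransferase, fell, at -2.19 and -2.39, while EXTL2 rose by 1.91 and by 2.27. Of 18 tested proteases and crosslinkers, 5 fell and 2 rose in vector cells and 8 fell and 2 rose in eIF4E-Flag cells. FURIN, a protease that cleaves precursors, fell by 1.38 in vector cells, and LOXL3, a crosslinking oxidase, rose by 1.43 and by 1.57. Of 17 tested TGF-beta genes, 5 fell and 1 rose in vector cells and 7 fell and 1 rose in eIF4E-Flag cells, LTBP2, a latent TGF-beta binding protein, among those that fell in both, at -1.28 and -1.67. Of the genes named from these lists, CSPG4, GPC6, LRP1, ITGA5, NDST1, EXTL2, LOXL3 and LTBP2 have exons opposite to another gene.

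In input 2 genes of these lists passed between eIF4E-Flag and vector cells, where 0.530% of all tested genes did. LTBP1, which tethers latent TGF-beta and counts under both the glycoproteins and the TGF-beta genes, fell by 2.20 ± 0.47 (edgeR adjusted p = 0.0374). TGM2, which crosslinks fibronectin, rose by 3.58 ± 0.57 (edgeR adjusted p = 0.00598). Both have exons opposite to another gene. No proteoglycan, receptor or glycosaminoglycan gene passed. Among those short of the threshold were the syndecans SDC4 at 1.15 ± 0.35 and SDC1 at 1.02 ± 0.32 (edgeR adjusted p = 0.143 and 0.161) and the integrin gene ITGA3 at 1.12 ± 0.34 (edgeR adjusted p = 0.145). Medians were -0.31 for glycoproteins, -0.04 for proteoglycans, 0.15 for receptors, 0.22 for glycosaminoglycan synthesis, -0.33 for proteases and crosslinkers and -0.20 for TGF-beta genes. No gene of these lists passed between eIF4E-Flag and vector cells in Cap IP or for the difference of Cap IP over input.

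AGRN had the highest mean CPM of the 9 genes over the 6 input libraries together, although FN1 was higher in vector input, at 325 against 313. The pattern of AGRN over the 12 libraries was most like those of ITGA3 (Pearson r = 0.991 of log2 CPM), the endocytosis gene EHD4 (0.983) and FAM83H (0.979). Of the matrix genes HSPG2 was closest to it, at 0.918, and THBS1 next, at 0.853. SPARC was at 0.05 and THBS2 at -0.81. These 12 libraries fall into input and Cap IP, which sets much of any such correlation, and the values are given as a description.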

How the data were processed

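RNA was measured in 12 libraries of U2OS cells, 3 in each of 4 groups. Unnormalized counts of reads per gene symbol were deposited. Per the submitters' processing notes, the authors used STAR 2.5.1b, GRCh38.p5, featureCounts 1.4.5-p1 and DESeq2. Per the labels, libraries were made with a ribosomal RNA depletion kit and read as single ends of 75 cycles. Counting strand and annotation were both not given in the sources used here.

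Counts were filtered with filterByExpr (12460 of 58684 genes), scaled with TMM and fitted with edgeR 4.0.16 (quasi-likelihood, R 4.3.3) with 1 mean per group over all 12 libraries. Calls had a Benjamini-Hochberg adjusted p under 0.05. SE is the log2 change divided by the root of the F statistic. log2 CPM used a prior count of 2. Totals of 1206321 to 1813486 counts limit precision. Positions, exon lengths and opposite genes came from GENCODE release 44, where 33465 rows matched by symbol and 1583 by a RefSeq synonym. The 4 promoters are from RefSeq. No replicate pair agreed within sampling noise (chi-square over its degrees of freedom 5.10 or more).

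All 10 genes, the opposite rows and up to 3 genes per list with the smallest p could be named. Opposite rows with under 10 counts and the EIF4E, VIM and cell marker rows were named after their values were seen. Members and lists were chosen with earlier results of these data known. Pairing by title was checked on residuals from group means. Correlations were 0.43, 0.27 and 0.44 for culture stems in vector cells and 0.20, 0.16 and 0.30 for tags in Cap IP, and these were taken to pair libraries. They were 0.35, 0.08 and 0.11 for stems in eIF4E-Flag cells and 0.18, 0.01 and -0.04 for tags in input, and these were not. Alternatives were DESeq2 1.42.0, other library sizes, other filters, only the groups compared, blocks and each library left out. The procedure was tested on simulated data. Between inputs, 15% of 2-fold and 91% of 4-fold changes were called, and between Cap IP groups 14% and 83%. For the difference of Cap IP over input, 3% and 35% were called. A 2-fold change was thus mostly missed, and a gene that did not pass may still differ.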

Additional observations from a re-analysis of the deposited data

How the results depend on the processing

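Of the log2 changes of the 9 genes under all alternatives, 622 kept their direction and side of the threshold, 9 gained and 9 lost a call, and 25 changed sign. With each library left out in turn, the 6 genes that fell in Cap IP passed each time in both kinds of cell. The cause of the changes below was not tested, except that fewer genes or libraries enter some fits.

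Counts of called genes depended on the setting. Between eIF4E-Flag and vector input, 66 became 152 by DESeq2, 11 with total counts and 7 with mitochondrial mRNAs as library sizes, 318 with no filter, 32 with a filter of 50 counts in 3 libraries and 19 with only the groups compared. It ran from 7 to 99 with a library left out, and was 43 and 13 without vector input replicate 1 and 3, and 7 and 8 without eIF4E-Flag input replicate 2 and 3. In Cap IP, 28 became 71 by DESeq2, 18 with mitochondrial mRNAs, 204 with no filter and 18 with the filter of 50 counts. It ran from 0 to 20 with a library left out, and was 4 without vector Cap IP replicate 3 and 0 and 1 without eIF4E-Flag Cap IP replicate 2 and 3. For Cap IP against input the filter of 50 counts gave 2949 genes in vector and 3432 in eIF4E-Flag cells, and leaving out a library gave 3896 to 4522 and 4507 to 5226. For the difference, 0 became 3 with no filter and was 0 in each fit without a library.

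Scaling moved the median log2 change of all genes in Cap IP by -0.74 (vector) and -0.85 (eIF4E-Flag) with total counts, and by 1.01 and 0.17 with mitochondrial mRNAs. In vector cells the split of 2308 higher and 2613 lower became 738 and 5013 with total counts and 2904 and 552 with mitochondrial mRNAs. In eIF4E-Flag cells 2726 and 2899 became 1101 and 5866, and 846 and 707 (1553 in all). With mitochondrial mRNAs, FN1 and HSPG2 passed in vector cells and FN1, TNC, HSPG2 and AGRN in eIF4E-Flag cells. With total counts FBN1 passed in vector cells at -2.19 (edgeR adjusted p = 0.0128), SPARC became -0.48 and THBS2 -0.27. With mitochondrial mRNAs SPARC in input became 0.14, and the differences of FBN1, FBN2 and HSPG2 became -0.25, -0.37 and -0.21.

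In input, AGRN passed with no filter at 1.63 (edgeR adjusted p = 1.19e-04) and without eIF4E-Flag input replicate 1 at 1.87 (edgeR adjusted p = 0.0394), and HSPG2 by DESeq2 at 0.89 (adjusted p = 0.0479). Some signs depended on 1 library. The difference ran from -0.73 to 0.15 for AGRN, -0.49 to 1.44 for FBN1, -0.0039 to 0.74 for FBN2, -0.76 to 0.87 for FN1 and -0.035 to 0.67 for HSPG2. Between Cap IP groups FBN2 ran from -0.39 to 0.11 and FN1 from -1.37 to 0.074. SPARC ran from -0.26 to 0.46 in vector cells and from -0.31 to 0.055 between inputs.

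The replicate block took culture stems or tags from the titles. Where the residual correlations were taken to pair libraries, it gave 6084 calls for 4921 in vector cells and 155 for 28 in Cap IP. It changed no call of the 9 genes there. Elsewhere the libraries shared a culture stem (eIF4E-Flag cells) or a tag (inputs) but were not taken as paired. There 4 of 6 libraries in eIF4E-Flag cells and 3 of 6 input libraries correlated best with their own. The block gave 462 calls between inputs, with AGRN, HSPG2 and THBS2 at 1.45, 0.88 and -1.63 (edgeR adjusted p = 0.00281, 0.0490 and 0.0302), 6690 in eIF4E-Flag cells, and 51 for the difference, where FN1 was 0.10.

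FBN1, THBS2 and VCAN had few counts, so depth limits what these libraries can show of them.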
